A study of Mus musculus with 6 samples.

Results

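The 10 genes examined here mark microglia, the resident macrophages of the brain. They were taken by symbol from a table of 21958 protein-coding mouse genes. The set is Cx3cr1, P2ry12, Csf1r, C1qa, C1qb, C1qc, Tyrobp, Trem2, Aif1 and Tmem119. Of these, C1qa, C1qb and C1qc encode the chains of C1q, the recognition molecule of the classical complement pathway. All 10 had enough counts to be tested, among 12255 genes in all. RNA came from synaptoneurosomes, resealed synaptic particles that keep the terminal and the spine it contacts, made from the hippocampus and the neighbouring cortex of FVB mice aged 6 to 8 weeks. Per the paper's methods, synaptoneurosomes from 6 mice were split into 4 aliquots. Whether each replicate had its own 6 mice is not stated. One group of 3 libraries held total RNA of unstimulated synaptoneurosomes. The other held RNA of polyribosomes, light and heavy fractions combined, from synaptoneurosomes stimulated through the NMDA receptor, with 50 µM NMDA and 10 µM glutamate for 30 s followed by the antagonist APV at 120 µM, and kept warm until 20 min. Per the paper's methods, unstimulated samples were kept on ice with cycloheximide, an inhibitor of protein synthesis. Stimulation, temperature, cycloheximide treatment and fraction changed together between the groups, so their effects cannot be told apart. In bulk RNA, fewer microglial fragments and less RNA per fragment cannot be told apart either.

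Microglia depend on signals received at the cell surface. The receptor CSF1R binds the growth factors CSF1 and IL-34 and keeps the cells alive, CX3CR1 binds the neuronal chemokine fractalkine, P2RY12 senses ADP and guides the processes, and TREM2 senses lipids and signals through the adaptor DAP12, the product of Tyrobp. C1q is assembled from A, B and C chains, each with a collagen-like stalk and a globular head, and in the brain microglia are its main source. C1q bound to synapses leads through the classical pathway to deposition of C3, which microglia recognise with the integrin receptor made of the Itgam and Itgb2 products. Microglial processes contact synapses.

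The C1q genes lay side by side on the minus strand of chromosome 4 (GRCm38), with C1qb at chr4:136880129-136886187, C1qc at chr4:136889804-136893065 and C1qa at chr4:136895917-136898803, each with 3 exons. Their coding sequences were of nearly the same length, 738 bases for C1qa, 762 for C1qb and 741 for C1qc. Because the comparison concerns mRNAs on polyribosomes, the sequence around each start codon is shown, 12 bases before it and 9 after its end, 5′ to 3′, with the start codon in capitals. These sequences and the lengths given here are from Gencode vM21 transcripts on GRCm38. Each name is followed by the position of the start codon and its strand. Csf1r is named without its sequence.
C1qa, chr4:136897835-136897837, minus: ggcagggacaccATGgagacctct
C1qb, chr4:136882305-136882307, minus: gaggctgagctgATGaagacacag
C1qc, chr4:136892560-136892562, minus: tacaccctcaggATGgtcgttgga
Cx3cr1, chr9:120052332-120052334, minus: caggacctcaccATGtccacctcc
P2ry12, chr3:59218250-59218252, minus: agaaccaggaccATGgatgtgcct
Tyrobp, chr7:30413839-30413841, plus: tatctggccaccATGggggctctg
Trem2, chr17:48346556-48346558, plus: aggaaaggtgccATGggacctctc
Aif1, chr17:35172537-35172539, minus: gtctgaggagccATGagccaaagc
Tmem119, chr5:113795736-113795738, minus: ccatagctcaacATGgtcccctgg

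With the A of the start codon counted as position 1 and no position 0, a purine (A or G) stood at position -3 in 8 of these 9 sequences, against 84.6% of 20429 genes with a complete coding sequence. C1qb, with C there, was the exception. G followed the start codon in 6 of the 9, against 49.4% of the genes, and the same 6 also had the purine, against 41.4%. On 9 sequences these shares are a description, and no relation to the counts was tested. Coding sequences were short in the set. They ran from 345 bases in Tyrobp to 2934 bases in Csf1r, and 9 of the 10 were below the median of 1206 bases over the same genes.

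The libraries differed in depth. Polyribosome libraries held 5294482 to 7361580 counts and total RNA libraries 1044955 to 3738022, so that the third total RNA library was the shallowest and gave the least precise values. Libraries with the same replicate number deviated together from their group means and are called preparations 1, 2 and 3 below. Neuronal markers summed to between 9572 and 12843 CPM (read counts scaled to library size with TMM factors), and all 10 of them were counted in every library. Of 5 markers of blood monocytes and neutrophils, 1 was counted in every library, and their sum stayed between 1.00 and 4.22 CPM. The 8 markers of macrophages at the brain's borders, which share several microglial genes, summed to 110 to 133 CPM on polyribosomes and 84.4 to 103 CPM in total RNA.

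The 10 genes together took 0.0778% (95% Wilson interval 0.0758 to 0.0798), 0.0902% (0.0880 to 0.0925) and 0.0827% (0.0803 to 0.0852) of the counts in the polyribosome libraries of preparations 1, 2 and 3. In total RNA they took 0.0693% (0.0667 to 0.0720), 0.0725% (0.0695 to 0.0757) and 0.0552% (0.0509 to 0.0599). These intervals cover counting error only. The summed level was 774, 932 and 902 CPM on polyribosomes and 643, 706 and 553 CPM in total RNA, and the groups did not overlap. Csf1r alone supplied the largest number of counts in each library, and Aif1 or Tyrobp the fewest.

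Compared per kilobase of exon, C1qa had the highest mean over the 6 libraries, 68.6 CPM per kb, which is percentile 94.7 among all genes tested. Csf1r followed at 61.1, C1qb at 46.4 and C1qc at 36.7 CPM per kb. Then came Cx3cr1 at 29.8, Tmem119 at 25.7, P2ry12 at 23.9, Trem2 at 19.6 and Tyrobp at 17.6 CPM per kb. Aif1, which encodes the calcium-binding protein IBA1 used to stain microglia, was lowest at 4.60 CPM per kb, percentile 37.3. Between neighbours in this order the ranges over the libraries overlapped, except between Tyrobp and Aif1.

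The next question was whether these mRNAs were at other levels on polyribosomes of stimulated synaptoneurosomes than in total RNA. In the edgeR quasi-likelihood test without a term for the preparation, 0 of the 10 passed an adjusted p (Benjamini-Hochberg) of 0.01, where 0.759% of all genes tested were called higher and 2.36% lower. At an unadjusted p of 0.05, 3 of the 10 were higher, C1qa, C1qb and Csf1r, against 15.4% of all genes. A Wald test of DESeq2, also without the preparation, called 0 of the 9 for which it gave an adjusted p, Aif1 having none (3 at an unadjusted p of 0.05), with 3.31% of the genes it tested called higher and 3.83% lower. When the preparation was entered as a block, the same 3 were called higher and none lower, where 11.8% of all genes were called higher and 13.2% lower. The median log2 fold change of the 10 was 0.36 without the block, and that of all genes tested was 0.00. C1qa, C1qb, C1qc, Csf1r, Cx3cr1, Trem2 and Tmem119, 7 of the 10, were higher on polyribosomes in all 3 preparations, as were 30.2% of all genes. Groups did not overlap in CPM for 3 of the 10, all higher on polyribosomes, against 17.4% of all genes higher and 18.9% lower without overlap.

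**Figure D1:**
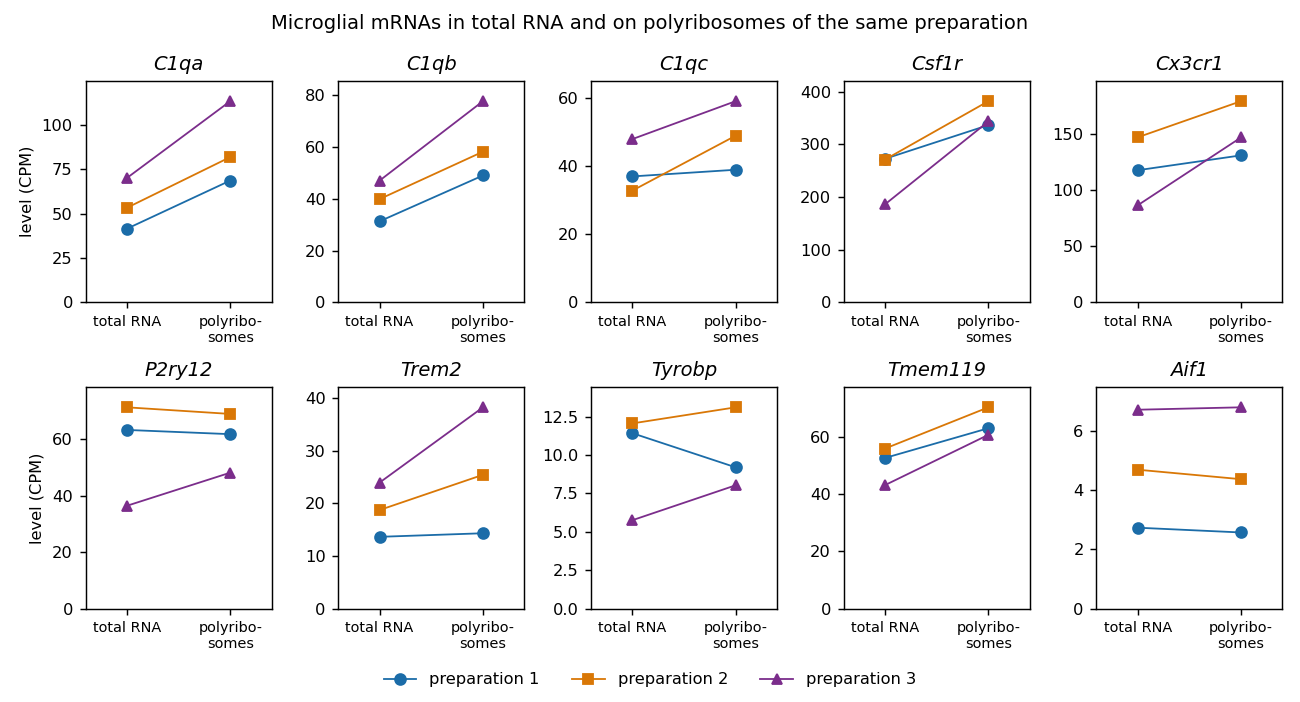
Level of each gene in CPM (vertical axis, starting at 0, with its own range for each gene) in total RNA and on polyribosomes, with a line joining the libraries of a preparation. The lines of C1qa and C1qb run upward and nearly parallel in the 3 preparations, while those of P2ry12 and Tyrobp run upward in some preparations and downward in others.

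C1qa and C1qb were called higher on polyribosomes once the preparation was a block, C1qc was not. C1qa stood at 68.6, 81.8 and 113 CPM on polyribosomes of preparations 1, 2 and 3, and at 41.5, 53.2 and 70.0 CPM in total RNA. Its lowest polyribosome library lay just below its highest total RNA library, yet within each preparation polyribosomes were higher, by 0.72, 0.62 and 0.69 on the log2 scale (mean 0.68 ± 0.05 SD, n = 3). C1qb stood at 49.0, 58.1 and 77.6 CPM on polyribosomes and at 31.3, 39.9 and 47.0 CPM in total RNA, with no overlap. Its differences were 0.64, 0.54 and 0.72 (0.63 ± 0.09 SD, n = 3). Both chains therefore kept nearly the same difference in each preparation. C1qc stood at 39.0, 49.0 and 59.1 CPM on polyribosomes and at 37.0, 32.8 and 47.9 CPM in total RNA. Its differences, 0.07, 0.57 and 0.30, were all upward and uneven (0.31 ± 0.25 SD, n = 3).

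The fitted log2 fold change of C1qa was 0.72 (SE 0.22, 95% interval 0.24 to 1.20, adjusted p = 0.0426 in the edgeR quasi-likelihood test) without the block and 0.68 (adjusted p = 1.13e-05) with it. For C1qb it was 0.68 (SE 0.21, 0.23 to 1.14, adjusted p = 0.0438 in edgeR) without the block and 0.63 (adjusted p = 1.48e-04) with it. For C1qc it was 0.36 (SE 0.21, -0.08 to 0.79, adjusted p = 0.247 in edgeR), and 0.31 (adjusted p = 0.0808) with the block, so this chain did not pass. The interval of C1qc overlapped those of the other chains. Leaving out both libraries of a preparation kept C1qa past the threshold each time. C1qb lost its call without preparation 1 (adjusted p = 0.0138 in edgeR) and without preparation 2 (0.0128).

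The proportions of the chain mRNAs were examined because the protein is built from the A, B and C chains in equal numbers. Per kilobase, C1qb stood at 0.67 ± 0.01 (SD, n = 3) of C1qa on polyribosomes and at 0.69 ± 0.04 in total RNA. C1qc stood at 0.49 ± 0.03 of C1qa on polyribosomes and at 0.63 ± 0.12 in total RNA. The ratio of C1qc to C1qa was lower on polyribosomes in each preparation (-0.65, -0.04 and -0.39 on the log2 scale), a spread (SD 0.31) nearly as large as its mean of -0.36. The C1qb ratio differed by -0.08, -0.07 and 0.03, with a mean of -0.04 that is smaller than its SD of 0.06.

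Csf1r (chr18:61105572-61132149, plus strand, 21 exons) was the remaining gene called with the block. It stood at 336, 382 and 343 CPM on polyribosomes of preparations 1, 2 and 3, and at 272, 271 and 186 CPM in total RNA. Every polyribosome library was above every total RNA library. Differences within preparations were 0.30, 0.49 and 0.88, the largest in preparation 3, whose total RNA library was the shallowest and had the lowest value. The fit gave 0.53 (SE 0.18, 95% interval 0.15 to 0.91, adjusted p = 0.0560 in the edgeR quasi-likelihood test), and 0.54 with the block (adjusted p = 2.75e-04). Without preparation 2 the call was lost (0.58, adjusted p = 0.0390 in edgeR). Csf1r shares 873 exonic bases with Hmgxb3 on the opposite strand, and the sources used here do not state whether the counting used strand, so reads in that stretch cannot be assigned with certainty. Hmgxb3 itself was measured at 36.7 ± 2.36 CPM on polyribosomes and 39.7 ± 2.88 CPM in total RNA (SD, n = 3 each). Its log2 fold change was -0.12 (adjusted p = 0.660 in edgeR). The Hmgxb3 counts carry the same uncertainty about strand, and the part of the overlap in the Csf1r values was not tested.

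Cx3cr1 and Tmem119, the latter a membrane protein used to tell microglia from other macrophages, had positive fold changes that did not pass the threshold in either fit. Cx3cr1 stood at 131, 179 and 147 CPM on polyribosomes and at 117, 147 and 86.3 CPM in total RNA, with overlapping groups. The fit gave 0.36 (SE 0.20, 95% interval -0.06 to 0.78, adjusted p = 0.221 in edgeR, and 0.0173 with the block). Tmem119 stood at 63.0, 70.3 and 60.7 CPM on polyribosomes and at 52.6, 55.9 and 43.2 CPM in total RNA, without overlap. The fit gave 0.33 (SE 0.17, -0.03 to 0.69, adjusted p = 0.186 in edgeR, and 0.0375 with the block). A stretch of 78 exonic bases of Cx3cr1 overlaps the antisense gene Gm33858, with the same uncertainty about strand.

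P2ry12 had a fitted change near 0 and was lowest in preparation 3. It stood at 61.8, 69.0 and 48.2 CPM on polyribosomes and at 63.3, 71.3 and 36.4 CPM in total RNA. The log2 fold change was 0.02 (SE 0.22, 95% interval -0.45 to 0.48, adjusted p = 0.968 in edgeR). This interval overlapped that of Csf1r (0.15 to 0.91). A comparison with Csf1r can also be made within libraries. The ratio of P2ry12 to Csf1r was lower on polyribosomes in preparations 1, 2 and 3 (-0.34, -0.54 and -0.48 on the log2 scale, mean -0.45 ± 0.10 SD, n = 3). This pair was picked after the values had been seen. P2ry12 is in the lowest quintile of GC content, and with the block and an offset for GC content and length, described below, the fitted values were close, 0.40 for P2ry12 and 0.45 for Csf1r.

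Trem2 and the mRNA of its adaptor, Tyrobp, did not pass in either fit. Trem2 stood at 14.3, 25.5 and 38.3 CPM on polyribosomes and at 13.7, 18.8 and 24.0 CPM in total RNA. Polyribosomes were higher in each preparation, by 0.07, 0.43 and 0.67, while the groups overlapped widely. The log2 fold change was 0.54 (SE 0.32, 95% interval -0.14 to 1.22, adjusted p = 0.260 in edgeR), and 0.37 with the block (adjusted p = 0.0834). Tyrobp, with between 6 and 87 counts, stood at 9.20, 13.1 and 8.03 CPM on polyribosomes and at 11.4, 12.1 and 5.75 CPM in total RNA. The fit gave -0.06 (SE 0.27, -0.63 to 0.50, adjusted p = 0.898 in edgeR), and its direction differed between preparations. Aif1, with between 7 and 33 counts, stood at 2.57, 4.37 and 6.79 CPM on polyribosomes and at 2.73, 4.69 and 6.71 CPM in total RNA. For Aif1 the log2 fold change was 0.11 (SE 0.42, -0.79 to 1.01, adjusted p = 0.891 in edgeR), so a difference of moderate size in either direction was not detectable at this depth.

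Base composition and length moved with the comparison over the whole table. Ordered by the GC content of the longest transcript, the median log2 fold change of the genes tested was -0.37 in the lowest quintile, then -0.18, -0.02 and 0.16, and 0.36 in the highest. Ordered by exon length it was 0.29 in the shortest quintile and -0.25 in the longest. C1qa, C1qb, C1qc, Trem2 and Tmem119 were in the highest GC quintile, and their transcripts held 57.4% to 59.5% GC. P2ry12, with 38.6% GC, was in the lowest. C1qa, C1qb, C1qc, Tyrobp, Trem2 and Aif1 were in the shortest quintile. Csf1r and Tyrobp were in the next highest GC quintile, and Cx3cr1 and Aif1 in the middle one. The median of the 10 genes without the block was 0.36. Whether GC content or length caused it was not tested.

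**Figure D2:**
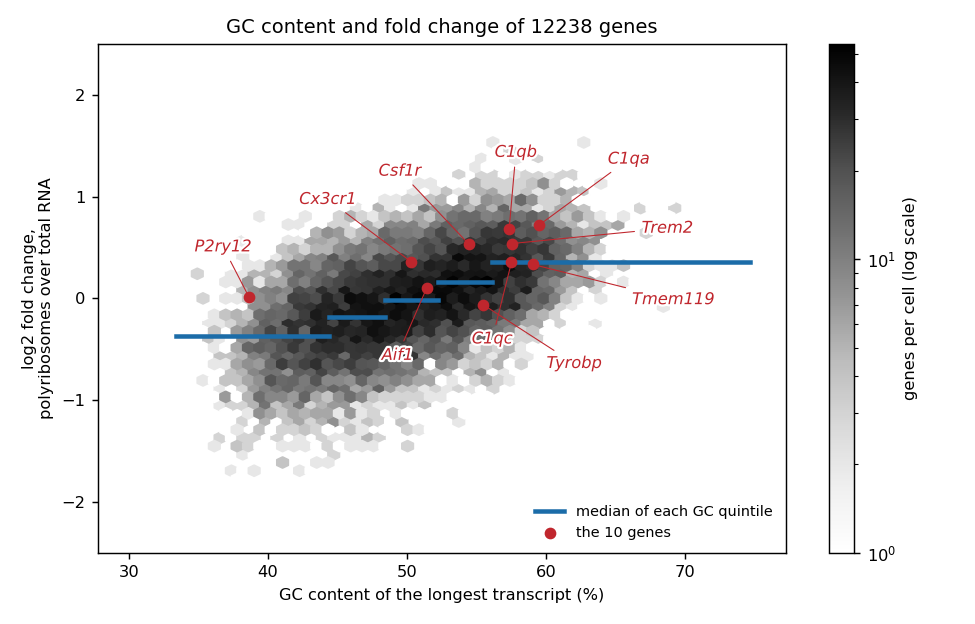
Log2 fold change without the block (vertical axis) against the GC content of the longest transcript in percent (horizontal axis) for the 12238 genes tested with a known transcript, as shaded cells whose darkness is the number of genes on a log scale (genes beyond the ends of the vertical axis are not drawn). Horizontal bars give the median of each GC quintile, from -0.37 to 0.36, and the red points are the 10 genes, of which P2ry12 lies well above the bar of its quintile and Tmem119 and C1qc lie on that of theirs.

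With an offset for GC content and length fitted in each library, together with the block, the genes that passed were others. Csf1r kept its call at 0.45 (SE 0.12, 95% interval 0.22 to 0.68, adjusted p = 0.00146 in edgeR). Cx3cr1 was called at 0.41 (SE 0.12, adjusted p = 0.00378 in edgeR) and P2ry12 at 0.40 (SE 0.12, adjusted p = 0.00603), as were 8.81% of all genes in this direction and 7.39% in the other. C1qa had 0.14 (-0.10 to 0.38, adjusted p = 0.411 in edgeR) and C1qb 0.17 (-0.08 to 0.43, adjusted p = 0.341), and neither passed. C1qc, Trem2 and Tmem119 had -0.14, -0.08 and -0.06, Tyrobp -0.44 and Aif1 -0.33, with adjusted p from 0.119 to 0.779 in edgeR. The median of the 10 was then 0.04. Csf1r alone was called with the block both with and without the offset, while the calls of C1qa and C1qb held only without it and those of Cx3cr1 and P2ry12 only with it. These calls rested on all 3 preparations. Without preparation 1 only Csf1r passed (0.56, adjusted p = 0.00418 in edgeR). Without preparation 2 none of the 3 did, with adjusted p of 0.0709 for Cx3cr1, 0.0914 for P2ry12 and 0.0873 for Csf1r, nor without preparation 3, with 0.0350, 0.0157 and 0.0196. With the offset and no block, 0 of the 10 passed in edgeR (0.237% of all genes higher and 0.751% lower), and Cx3cr1, P2ry12 and Csf1r had an unadjusted p under 0.05.

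**Figure D3:**
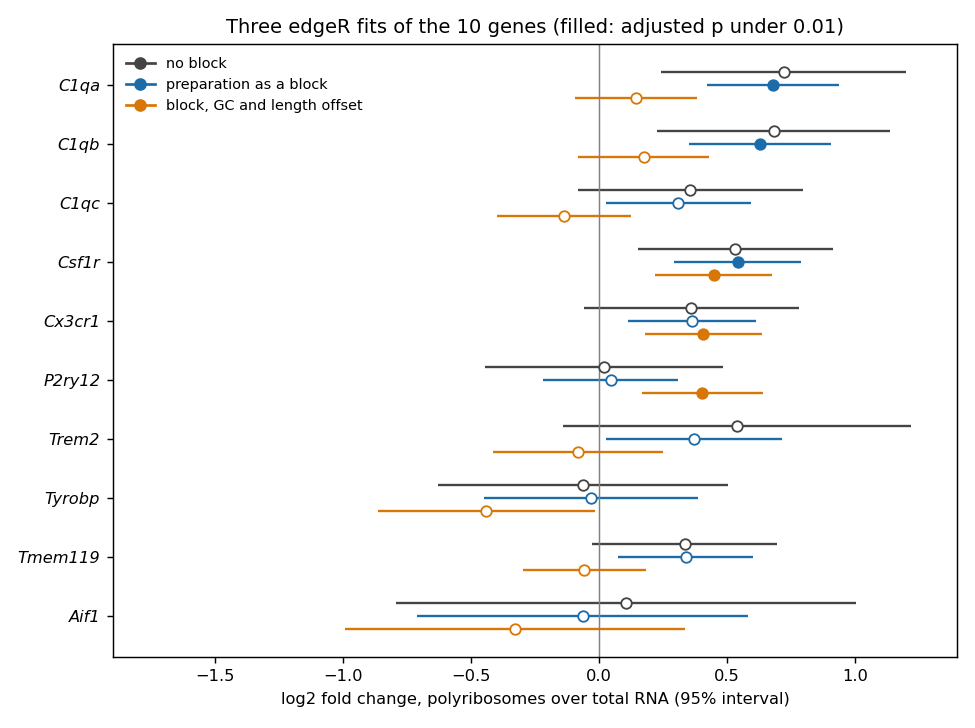
Log2 fold change of polyribosomes over total RNA (points, horizontal axis) with 95% intervals (lines) for each gene in 3 edgeR fits, without a block, with the preparation as a block, and with the block and an offset for GC content and length. Filled points passed an adjusted p of 0.01, which was C1qa, C1qb and Csf1r in the blocked fit and Csf1r, Cx3cr1 and P2ry12 with the offset.

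Some of the 10 genes also differed between preparations, in opposite directions. C1qa, C1qb, C1qc, Trem2 and Aif1 were highest in preparation 3 in both groups, 5 of the 10 against 23.5% of all genes. P2ry12, Tyrobp and Tmem119 were lowest in preparation 3 in both groups, 3 of the 10 against 23% of all genes. An F test of the preparation terms in the blocked edgeR fit, added after these values had been seen, called Trem2 (adjusted p = 7.77e-06), C1qa (9.15e-04) and P2ry12 (0.00878), 3 of the 10 against 8.71% of all genes. Differences between preparations are given as log2 CPM (prior count of 2) averaged over both groups, not as values of the fit. From preparation 1 to preparation 3 this average differed by 1.09 for Trem2 and 0.73 for C1qa, both higher in preparation 3. For P2ry12 it differed by -0.57, lower there. Trem2 and Tyrobp, whose products work as a pair, stood on opposite sides, with Tyrobp at -0.56 (adjusted p = 0.109 in edgeR). Aif1 had 1.22 (adjusted p = 0.0179 in edgeR) on few counts.

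With the GC and length offset only Trem2 was still called for the preparations (adjusted p = 1.06e-04 in edgeR, 7.3% of all genes), while C1qa had 0.100 and P2ry12 0.274. Without the polyribosome library of preparation 1, 0 of the 10 passed, where 510 of 12280 genes did. Trem2 then had an adjusted p of 0.0771 in edgeR. Trem2 kept its call without any other single library, C1qa only without the total RNA library of preparation 3, and P2ry12 only without the polyribosome library of preparation 3. Globin genes, which mark red blood cells left in the tissue, summed to 1142, 326 and 249 CPM on polyribosomes and 874, 379 and 198 CPM in total RNA of preparations 1, 2 and 3. The 3 of 4 globin genes tested were lowest in preparation 3 in both groups, and 5 of 8 oligodendrocyte markers were too. Of 9 astrocyte markers, 5 were highest and 1 lowest there. Over all genes tested, the median level in preparation 3 against the others went from -0.26 on the log2 scale in the lowest GC quintile to 0.25 in the highest. Of 27 further microglial genes, 13 were lowest and 2 highest in preparation 3 in both groups. The part of cell makeup in the differences between preparations was not tested.

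**Figure D4:**
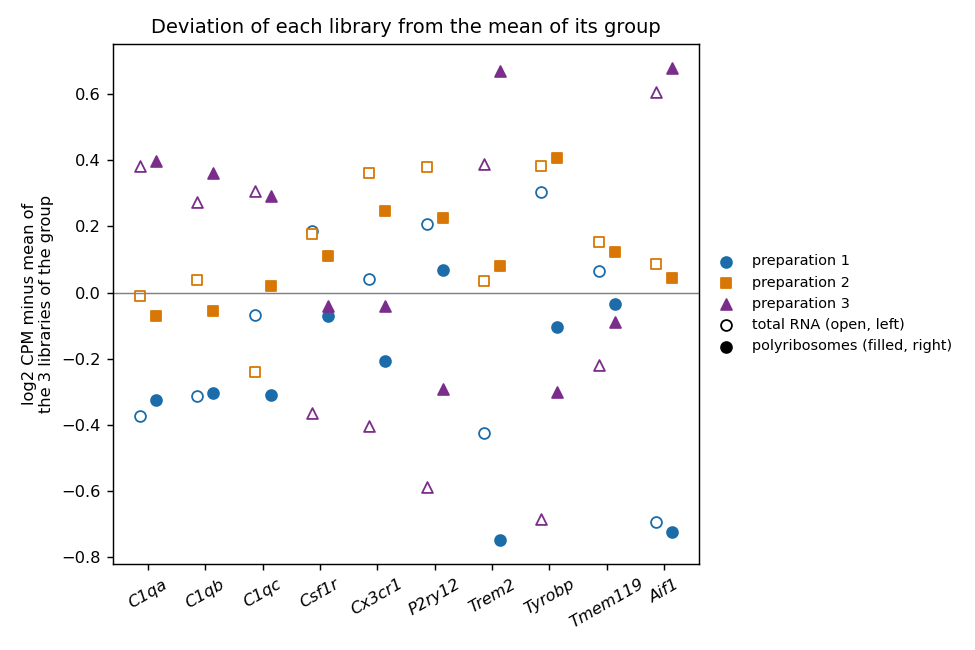
Deviation of log2 CPM in each library from the mean of the 3 libraries of its group (vertical axis) for each gene, with open symbols for total RNA, filled symbols for polyribosomes, and colour and shape for the preparation. Triangles of preparation 3 lie above the other preparations for the C1q genes, Trem2 and Aif1 and below them for P2ry12, Tyrobp and Tmem119, in both groups.

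The wider set of microglial genes was compared in the same way. Of 27 further microglial genes tested, 0 were called without the block in edgeR (0 at an unadjusted p of 0.05), and 25 had a positive fold change, where 50.1% of all genes did. Their median log2 fold change was 0.23. With the block 1 passed higher, where 11.8% of all genes did, and with block and offset 4 did, where 8.81% did. Itgam, Adgre1 and Mpeg1 were among these 4 (Adgre1 and Mpeg1 named after their values had been seen). The median with block and offset was 0.30, where that of the 10 genes was 0.04. Mertk, a receptor for the uptake of dying cells, had 0.21 without the block (SE 0.16, adjusted p = 0.393 in edgeR). The subunits of the C3 receptor were present, Itgam at 79.9 ± 7.48 CPM on polyribosomes and 59.8 ± 13.5 CPM in total RNA, and Itgb2 at 14.5 ± 5.49 and 11.0 ± 2.15 CPM. Neither passed without the block (0.39, adjusted p = 0.157, and 0.46, adjusted p = 0.320, in edgeR). With block and offset Itgam passed (0.50, adjusted p = 4.30e-04 in edgeR) and Itgb2 had 0.20 (adjusted p = 0.507).

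Of 20 genes for receptor ligands and signalling proteins, TGF-beta signalling included, 17 were tested and 0 passed without the block in edgeR. At an unadjusted p of 0.05, 4 were higher, where 15.4% of all genes were, and the median was 0.05. The genes of the 4 ligands of TREM2, CX3CR1 and CSF1R in the list, which other cells make for the most part, had positive fold changes. Apoe, a lipid carrier bound by TREM2 and made mainly by astrocytes, had a log2 fold change of 1.14 (SE 0.31, adjusted p = 0.0268 in edgeR, and 1.53e-11 with the block). Cx3cl1, the gene of fractalkine, had 0.49 (SE 0.18, adjusted p = 0.0780 in edgeR, and 0.00170 with the block). For the CSF1R ligands, Il34 had 0.48 (adjusted p = 0.0843 in edgeR, and 0.00330 with the block) and Csf1 had 0.41 (adjusted p = 0.119, and 0.0290 with the block). With the block these 3 calls, Apoe, Cx3cl1 and Il34, were the only ones in the list, and with block and offset Apoe alone remained, at 0.70 (adjusted p = 2.25e-05 in edgeR). Of all genes tested, 11.8% were called higher with the block and 8.81% with block and offset.

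Several complement genes that act after C1q were sparse. C1ra and C1s1, the proteases that C1q activates, had 44 and 38 counts over the 6 libraries, and C2 and C3 had 34 and 44, too few to be tested. C4b, whose product is cleaved by the activated C1 complex, was not sparse and is named after its values had been seen. It stood at 63.1 ± 21.7 CPM on polyribosomes and 37.1 ± 2.66 CPM in total RNA (SD, n = 3 each), with a log2 fold change of 0.77 (adjusted p = 0.0364 in edgeR, 1.04e-04 with the block and 3.44e-04 with block and offset). Of 30 genes for complement components, regulators and receptors, 22 were tested, of which 1 was called higher and 1 lower without the block, with a median of 0.42. The one called higher was Sez6, a neuronal membrane protein with complement-control domains, at 0.79 (SE 0.16, adjusted p = 0.00893 in edgeR), and at 0.51 with block and offset (adjusted p = 2.42e-04). Cd46, whose product is a cofactor in the inactivation of C3b and C4b, fell by 2.61 on the log2 scale (SE 0.38, adjusted p = 0.00168 in edgeR) on 65 counts. With the block, 8 passed higher and 2 lower, and with block and offset 9 higher and 1 lower. Of all genes, 11.8% passed higher and 13.2% lower with the block, and 8.81% and 7.39% with block and offset. Among 15 relatives of C1q with the same globular domain that the table holds, 11 were tested and C1qtnf4, a secreted protein, was called at 1.45 (SE 0.28, adjusted p = 0.00647 in edgeR), with a list median of 0.35. With block and offset C1qtnf4 had 0.52 (adjusted p = 2.47e-04 in edgeR) and was the only one of the list called, and the median was 0.21. With the block alone 3 were called higher, where 11.8% of all genes were.

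Genes of activated microglia were tested for 11 of 20, of which H2-Ab1, a chain of MHC class II, was called higher at 1.49 (SE 0.26, adjusted p = 0.00391 in edgeR). It stood at 13.3 ± 1.37 CPM on polyribosomes and 5.15 ± 1.50 CPM in total RNA (SD, n = 3 each), and border macrophages and other antigen-presenting cells make it too. Cst7, Clec7a, Ccl3 and Tnf, genes of reactive microglia, had no count in any library. The median of the 11 was 0.52. With the block 7 were called higher, where 11.8% of all genes were, and with block and offset 5, where 8.81% were. The 7 were Cd9, Axl, Cd74, H2-Ab1, Ctsb, Ctsd and Cd63, listed after their values had been seen. Ctsb stood at 948 CPM and Ctsd at 696 CPM on polyribosomes. Which cell types supplied these mRNAs was not tested. Border macrophage markers had 6 of 8 tested and 0 called in edgeR (2 at an unadjusted p of 0.05), with a median of 0.27, and 1 passed with the block and 2 with block and offset.

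Markers of other cell types had positive medians too. Median log2 fold changes were 0.42 over 9 astrocyte markers, 0.38 over 8 oligodendrocyte markers, 0.23 over 8 endothelial markers, 0.19 over the 3 globin genes tested and 0.14 over 10 neuronal markers, beside 0.36 for the 10 genes. Without the block 1 of these passed, the oligodendrocyte gene Cldn11 at 0.83 (SE 0.16, adjusted p = 0.00669 in edgeR). With the block, 5 astrocyte, 4 oligodendrocyte, 1 endothelial and 3 neuronal markers were called higher, and with block and offset 8, 4, 1 and 2. Of all genes tested, 11.8% were called higher with the block and 8.81% with block and offset. The medians with block and offset were 0.58 for astrocytes, 0.38 for oligodendrocytes, 0.30 for endothelium, -0.06 for the globin genes and 0.15 for neurons, beside 0.04 for the 10 genes. Astrocyte markers summed to 40788 to 43002 CPM on polyribosomes and 32222 to 36771 CPM in total RNA, oligodendrocyte markers to 11293 to 15422 and 8141 to 11570 CPM. Most of the astrocyte sum came from Slc1a2, with means of 31981 CPM on polyribosomes and 27872 CPM in total RNA. The part of these cell types in the values of the microglial genes was not tested.

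The genes whose levels followed the C1q chains most closely over the 6 libraries were not microglial markers of any list used here. Among 8952 genes with a mean of at least 10 CPM, the Pearson correlation of log2 CPM with the mean of C1qa, C1qb and C1qc was 0.998 for Acot7, 0.996 for Mageh1, Farp1 and Cd248, and 0.995 for Nat14. Over so few libraries, which share preparations and differ in depth, 293 genes had a correlation above 0.95, so the ranking is a description only.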

How the data were processed

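Whole-number read counts per gene were deposited by the authors, without normalization, for 3 libraries of each group. Per the paper's methods, ribosomal RNA was depleted and strand-specific libraries were made. The submitters' processing notes name STAR 2.5.2b, HTSeq, SAMtools and bedtools. Reads were counted on a Gencode annotation of GRCm38, and whether strand was used is not given in the sources used here. The deposited table also holds the authors' DESeq2 comparison, which was not used.

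Genes kept by filterByExpr were tested with edgeR 4.0.16 (R 4.3.3, TMM, robust quasi-likelihood, Benjamini-Hochberg over all genes tested, threshold 0.01). Log2 differences within preparations used CPM with a prior count of 2, and ratios between genes used CPM without one. Group was the only term, and the replicate number was added as a block in another fit. Per the paper's methods synaptoneurosomes were divided into aliquots. Same-numbered libraries share a prefix in the deposited column names, which differs between numbers. Their deviations from their group means correlated across genes (0.37, 0.26 and 0.38 for numbers 1, 2 and 3). The replicate number was therefore read as the preparation. Nothing in the labels says what the prefix stands for or how separate the preparations were. Without the block, p-values are set against the spread between libraries of the same group. With the block, differences between preparations are removed and p-values are set against the spread that remains. That spread is estimated from few libraries with information shared across genes. Replicates differed by more than sampling noise (chi-square per degree of freedom 3.49 to 21.4). The GC and length offset was a natural spline with 5 degrees of freedom per library, from Gencode vM21 (99.9% of the genes tested). Alternatives were DESeq2 1.42.0, other scaling and filters, and leaving out libraries. The edgeR fits without the offset were also run on simulated counts. Those counts held no preparation effect shared across the table and no GC or length trend. The simulation therefore cannot check the offset fits, nor the blocked fit under such effects.

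The 10 genes and all lists were chosen with earlier results of these data known. Named besides the 10 were listed genes past the threshold without the block (at most 4 a list), otherwise the 2 with the highest CPM, partners of the receptors and of C1q, and the 5 genes most like C1q. A gene that this rule names among the further microglial genes is not reported here. The lists are further microglial genes, receptor signalling, complement, C1q relatives, activated microglia, border macrophages, blood myeloid cells, red cells, astrocytes, oligodendrocytes, endothelium and neurons.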

Additional observations from a re-analysis of the deposited data

How the results depend on the processing

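Without the block, 382 genes were called over the table in edgeR. The count was 914 with all genes of at least 1 count, 693 with DESeq2, 3060 with the replicate block, 121 with the GC and length offset, 1986 with both, and 24 to 279 when each library was left out. The split of 93 higher to 289 lower became 44 to 376 with total counts as the only scaling, which moved the median of all genes to -0.11. It was 394 to 520, 321 to 372, 1440 to 1620 and 1080 to 906 with all genes of at least 1 count, DESeq2, the block, and block with offset. Of the 10 genes, 0 were called without the block under each scaling, filter and left-out library, while 3 were called with the replicate block and 3 with block and offset. Leaving out both libraries of each replicate number, a choice made after seeing the data, left 1 to 3 called with the block and 0 to 1 with block and offset. The median of the 10 moved to 0.10 with the offset and 0.043 with block and offset. Members differing between preparations numbered 1 with the offset, where 895 of 12255 genes did. They numbered 0 to 4 when a library was left out, where 308 of 12310 to 1926 of 12637 genes did.

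Signs turned for P2ry12, Aif1, Tyrobp, C1qc, Tmem119 and Trem2. P2ry12 had -0.086 with total counts only and -0.17 to 0.20 when each library was left out. Aif1 had -0.013 with total counts only, -0.065 with the block, -0.15 with the offset, -0.33 with both, and -0.28 to 0.41 when each library was left out. Tyrobp ranged from -0.28 to 0.062 when each library was left out. With the offset C1qc had -0.12 and Tmem119 -0.081, and with block and offset C1qc had -0.14, Tmem119 -0.058 and Trem2 -0.083. The cause of these changes was not tested. Aif1 and Tyrobp had 7 and 6 counts in the shallowest library, which limits both.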
